A study of Rattus norvegicus with 26 samples.

Results

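The enzymes that break down glucose and that store and release glycogen were followed through their transcripts in rat soleus, a calf muscle made mostly of slow fibres. The set has 34 genes, chosen by symbol from the 34034 genes of the count table: the enzymes of glycolysis, of fructose bisphosphate control, of glycogen breakdown and synthesis, of glycogen phosphatase targeting and of the glycerol phosphate shuttle. All 34 symbols were found in the table, and 30 passed the filter on low counts and were tested among 10064 genes. By the form that skeletal muscle is known to use, 12 members were classed as muscle isoforms and 9 as other isoforms of the same steps. The remaining 13 were classed as enzymes with no separate muscle gene among the members. Counts per gene do not separate splice forms, such as those of Pkm.

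The animals were aged female rats from generation 44 of selective breeding for low (LCR) or high (HCR) running capacity. The labels name no engineered allele. Libraries, each treated as 1 animal, came from 8 sedentary and 5 running LCR rats and from 8 sedentary and 5 running HCR rats. Sedentary rats had no wheel, whereas the runners lived in pairs with a wheel for more than 5 months. Rats of 1 cage shared a wheel, the distance run by each rat is not used here, and a difference between the cohorts cannot be told apart from running. The labels do not say that replicates are independent of cage or litter, so the p-values measure the spread between these libraries.

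Glycolysis splits glucose, or glucose phosphate released from glycogen, into pyruvate and yields ATP without oxygen. Fast muscle fibres are known to hold more of these enzymes than slow fibres, and skeletal muscle uses its own forms of several of them. Glycogen synthase and phosphorylase build and break the store under the control of phosphorylase kinase and of phosphatase-targeting subunits.

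Total counts per library ran from 1.10 to 2.52 M (mega). Levels are given as CPM, the counts of a gene per M counts of its library, scaled with TMM factors. Reads came from the 3' ends of transcripts, so no scaling by gene length was applied, and a gene's level also depends on how well its 3' end is annotated and mapped. In bulk muscle, fewer cells of a type and less RNA per cell cannot be told apart. Of the libraries, 2 have titles that name the other line: HCR running 5 and LCR running 5. Both were kept under the line in their description and genotype. For Prmt1, a gene lower in HCR, HCR running 5 stood at 0 CPM and LCR running 5 at 153 CPM, against 1.98 to 76.2 CPM in the other 12 HCR libraries and 5.76 to 134 CPM in the other 12 LCR libraries. Acad11, a gene higher in HCR, stood at 17.4 CPM in HCR running 5 and at 1.76 CPM in LCR running 5, against 5.80 to 25.2 CPM in other HCR and 2.32 to 7.40 CPM in other LCR libraries. In both genes each of these libraries therefore lay on the side of the line in its description. The labelled tissue was checked on fibre markers, with slow-fibre genes (7 of 7 detected) summing to group medians of 31696 to 39515 CPM and fast-fibre genes (10 of 11 listed were in the table) to 5855 to 12321 CPM. LCR sedentary 5 was the lowest library of its group in the summed members, in muscle isoforms, in slow-fibre genes and in fast-fibre genes, and the highest in other isoforms.

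The muscle forms were the abundant forms at most steps. The leading members by mean CPM over the 26 libraries were Pgam2, the muscle phosphoglycerate mutase (1077 CPM), Eno3, the muscle enolase (566 CPM), Ppp1r3a, the phosphatase subunit that binds glycogen in muscle (538 CPM), and Gys1, the muscle glycogen synthase (537 CPM). Ppp1r3c, another glycogen-targeting subunit, followed at 438 CPM. Next came Pgk1 (phosphoglycerate kinase, 336 CPM), Pygm (muscle glycogen phosphorylase, 283 CPM), Tpi1 (triosephosphate isomerase, 279 CPM), Gyg1 (glycogenin, the primer of glycogen, 239.6 CPM) and Pfkm (muscle phosphofructokinase, 212 CPM). Summed counts of Pfkm were 16.8 to 41.5 times those of Pfkp, its platelet-type counterpart, by group. Summed counts of Pygm were 44.8 to 89.9 times those of Pygb, the brain phosphorylase, and those of Pgam2 were 13.9 to 17.1 times those of Pgam1. Hexokinase was the exception, since the summed counts of Hk2, the insulin-responsive muscle form, were 0.652 to 1.25 times those of Hk1.

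Some members could not be assessed. Aldoa, the muscle aldolase, had 0 counts in all 26 libraries. Counting error alone would allow up to 1.19 to 2.73 CPM there (3 counts of each library's total). Whether its reads were lost in mapping or counting was not tested, and the value is not read as absence of the transcript. Aldoart2, a processed copy of an aldolase, also had 0 counts. Gapdh, glyceraldehyde phosphate dehydrogenase, averaged 28.3 CPM beside 6.27 CPM for its copy Gapdh-ps24, so reads may be shared or lost among copies and its level is uncertain. Gapdh ranged from 10.3 through a median of 36.4 to 40.8 CPM in sedentary LCR and from 16.3 through 25.5 to 32.3 CPM in sedentary HCR. Gapdh stood at 31.5, 31.1, 29.6, 24.6 and 33.4 CPM in the LCR runners and at 33.2, 23.3, 16.3, 32.3 and 22.5 CPM in the HCR runners. The groups overlapped throughout, and its log2 differences ran from -0.29 to 0.06 over the 7 contrasts. Eno1 (4.64 CPM), Pfkfb4 (4.09 CPM) and Pfkl (1.82 CPM) fell below the filter.

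The promoters of the members that passed the test in any contrast, Eno3 and Aldoc, are shown because these genes carry the differences below. The capitals mark E-boxes (CANNTG), the motif of muscle regulatory factors, and the reverse complement CACGT of the hypoxia response core ACGTG, found on either strand in the 250 bases before the annotated start (RefSeq, build GRCr8; the counts were made on mRatBN7.2). The windows are chr10:55868936-55869185 (plus strand) and chr10:63715294-63715543 (plus strand).
Eno3: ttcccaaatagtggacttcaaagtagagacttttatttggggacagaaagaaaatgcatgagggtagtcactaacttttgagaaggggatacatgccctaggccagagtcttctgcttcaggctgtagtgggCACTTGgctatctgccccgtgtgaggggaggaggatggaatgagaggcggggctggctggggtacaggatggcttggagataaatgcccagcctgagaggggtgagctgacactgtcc
Aldoc: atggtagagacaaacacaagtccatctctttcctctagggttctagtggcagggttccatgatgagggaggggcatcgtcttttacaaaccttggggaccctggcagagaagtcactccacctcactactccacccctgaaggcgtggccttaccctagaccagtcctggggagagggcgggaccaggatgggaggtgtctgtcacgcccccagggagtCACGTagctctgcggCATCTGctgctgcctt

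Eno3 has 1 E-box in this window, and Aldoc has 1 E-box and 1 hypoxia core. No MEF2 site and no TATA box (TATAAA) was matched in either. Of the 34 members, 31 had a promoter in the table (Pgk1, Gpd1 and Fbp2 did not). The hypoxia core was present in 12 of these 31 (38.7%) and in 16.6% of 33360 promoters of the same length. E-boxes were present in 19 of 31 and in 65.5% of all promoters, MEF2 sites in 1 of 31 and in 2.97%, and TATA boxes in 4 of 31 and in 12.9%. A match describes letters in the window and no binding or use of a site.

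Between the lines at rest, the question is what breeding for running capacity goes with when no wheel is given. Eno3 was lower in HCR than in LCR rats, and most muscle isoforms had lower means while every tested other isoform had a higher one. The other isoforms below the filter did not all share that direction. Eno3 was the 1 of 30 tested members to pass in either direction, against a background of 2.72% of all genes. Eno3 ranged from 376 through a median of 581 to 780.2 CPM in sedentary LCR and from 376 through 401 to 578 CPM in sedentary HCR. All 8 HCR libraries lay below the LCR mean, but the groups overlapped. LCR sedentary 5 was as low as the lowest HCR library, and 3 further LCR libraries (554 to 575 CPM) lay below the highest HCR library. Means were 590.3 ± 115 in LCR and 436 ± 72.7 CPM in HCR (SD, n = 8 each). Eno3 was thus 1.35-fold lower, at -0.44 on the log2 scale (SE 0.10; adjusted p = 0.0146 by edgeR's quasi-likelihood test). The call held in all 26 refits that left out 1 library.

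**Figure D1:**
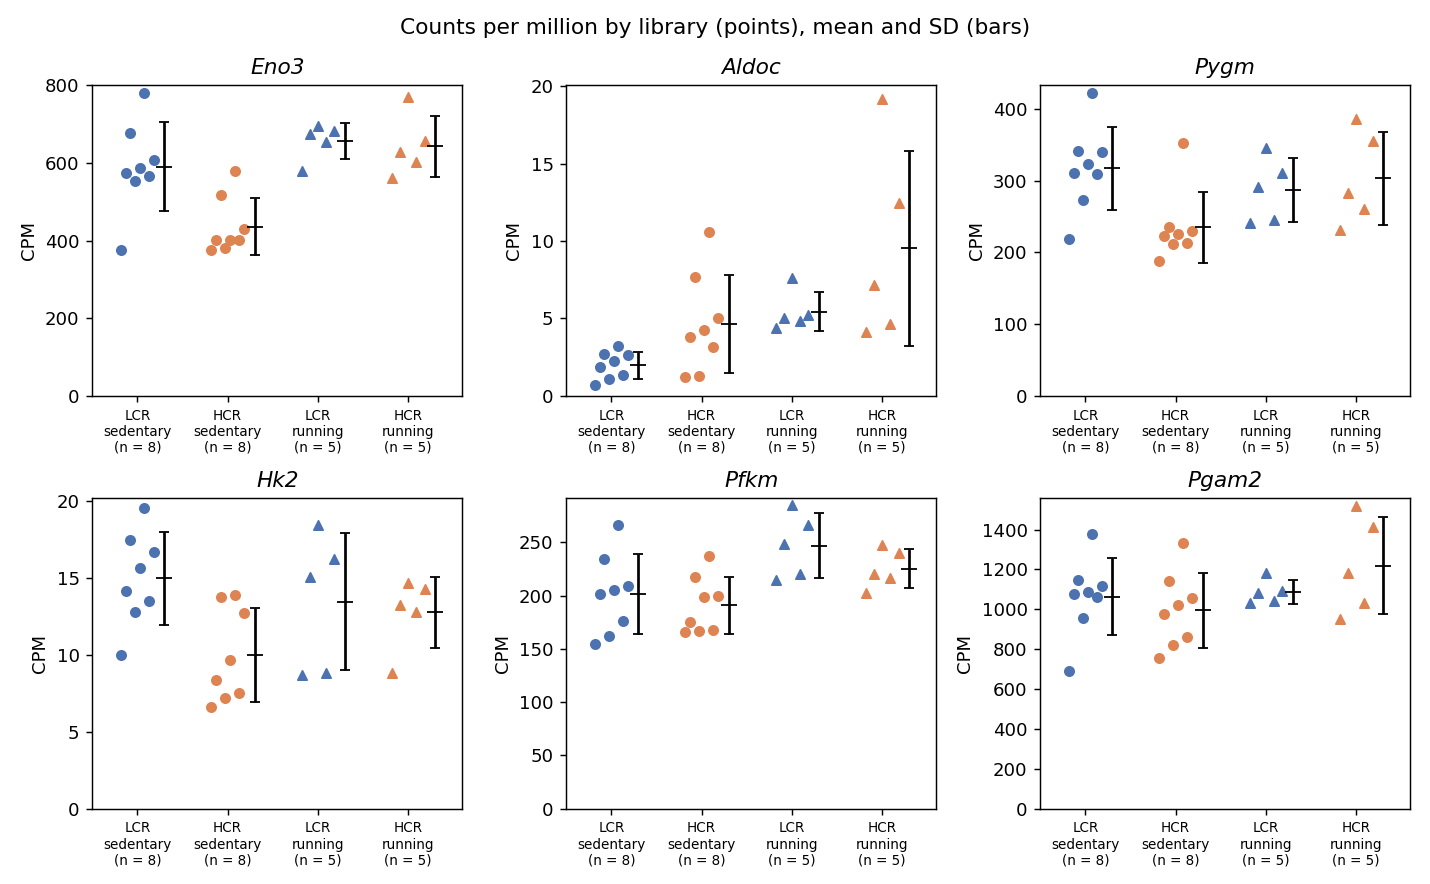
Level of 6 enzyme genes in each library (points, CPM on a linear axis from 0), with the mean and SD of each group as bars. Eno3 is lower in sedentary HCR (mean 436 CPM) than in the other groups (590.3 to 657 CPM), and the Aldoc values of the 5 LCR runners lie above all 8 sedentary LCR values. The Aldoc counts of these 2 groups are few and overlap (5 to 14 against 1 to 6), and the difference did not pass.

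Pygm, which releases glucose phosphate from glycogen, ranged from 218 through a median of 317 to 421 CPM in sedentary LCR and from 189 through 224 to 352 CPM in sedentary HCR. The HCR libraries were low except HCR sedentary 4, at 352 CPM, and the groups overlapped. Its log2 difference of -0.43 (SE 0.12) did not pass (adjusted p = 0.0545, edgeR). Pgm1, which converts glucose 1-phosphate, and Gyg1 had differences of -0.29 (adjusted p = 0.0533, edgeR) and -0.31 (0.0754). Hk2 ranged from 9.98 through 14.9 to 19.6 CPM in sedentary LCR and from 6.60 through 9.01 to 13.9 CPM in sedentary HCR, a difference of -0.57 (SE 0.19, adjusted p = 0.0887, edgeR). Its groups overlapped. Further members with an unadjusted p under 0.05 were Ppp1r3a (-0.25), Pkm, pyruvate kinase (-0.22), Phkb, the beta subunit of phosphorylase kinase (-0.18), and Aldoc, the brain aldolase (1.12).

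The direction differed by class in this comparison. Of 11 tested muscle isoforms, 9 had a log2 difference below 0, with a median of -0.25. The 6 other isoforms all had one above 0, with a median of 0.27, and 1 of them had an unadjusted p under 0.05. Pgam1, at means of 68.5 and 69.8 CPM in sedentary LCR and HCR, hardly differed. The other tested genes of this class averaged only 4.53 to 13.5 CPM over the 26 libraries. Aldoc, with at most 6 counts in sedentary LCR, passed the filter through the other groups. Below the filter, Pfkl (means of 2.06 and 2.03 CPM in sedentary LCR and HCR) and Pfkfb4 (4.45 and 4.19 CPM) were lower in HCR. Eno1 (4.14 and 5.43 CPM), also below the filter, was higher. Of the 13 enzymes without a separate muscle gene, 11 were below 0 (median -0.18), and over all genes tested the median was 0.01, with 51.4% above 0. By role, all 5 tested glycogen synthesis genes were below 0 (median -0.29), as were 9 of 13 glycolytic genes (median -0.09) and 3 of 5 glycogen breakdown genes. Both phosphatase-targeting genes were below 0, whereas both glycerol phosphate genes (median 0.19) and 2 of 3 genes of fructose bisphosphate control (median 0.02) were above 0. Of the marker genes tested for other cell types, 5 of 5 for adipocytes (median 0.72), 6 of 6 for macrophages (0.34), 5 of 5 for fibroblasts (0.21) and 3 of 4 for Schwann cells (0.53) were above 0. So were 4 of 7 for endothelial cells (0.02), 1 of 4 for smooth muscle (-0.13) and 0 of 3 for red cells (-0.10). Their part in the enzyme differences was not tested. In all, 9 members had an unadjusted p under 0.05, against 15.9% of all genes. Of the members only Eno3 passed the adjusted threshold. Of the cell type markers listed here 1 passed, a macrophage gene higher in HCR. These directions are a description.

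Single libraries moved this pattern. Without LCR sedentary 5, in which the muscle isoforms summed to 2266 CPM against 3188 to 4188 CPM in the other 7 sedentary LCR libraries, 5 members passed, all lower in sedentary HCR. These were Eno3 (-0.52, adjusted p = 0.00096, edgeR), Pygm (-0.51, 0.0154), Pgm1 (-0.33, 0.0205), Gyg1 (-0.36, 0.0347) and Ppp1r3a (-0.32, 0.0425). Pygm also passed without HCR sedentary 4 (-0.54, 0.0042) and without HCR running 1 or 5. Pgm1 also passed without LCR sedentary 1, HCR sedentary 2, HCR running 3 or LCR running 5, and Gyg1 without LCR running 3. DESeq2 called Eno3, Pygm and Pgm1 with all libraries, and voom with quality weights called Eno3, Pygm, Pgm1 and Gyg1.

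**Figure D2:**
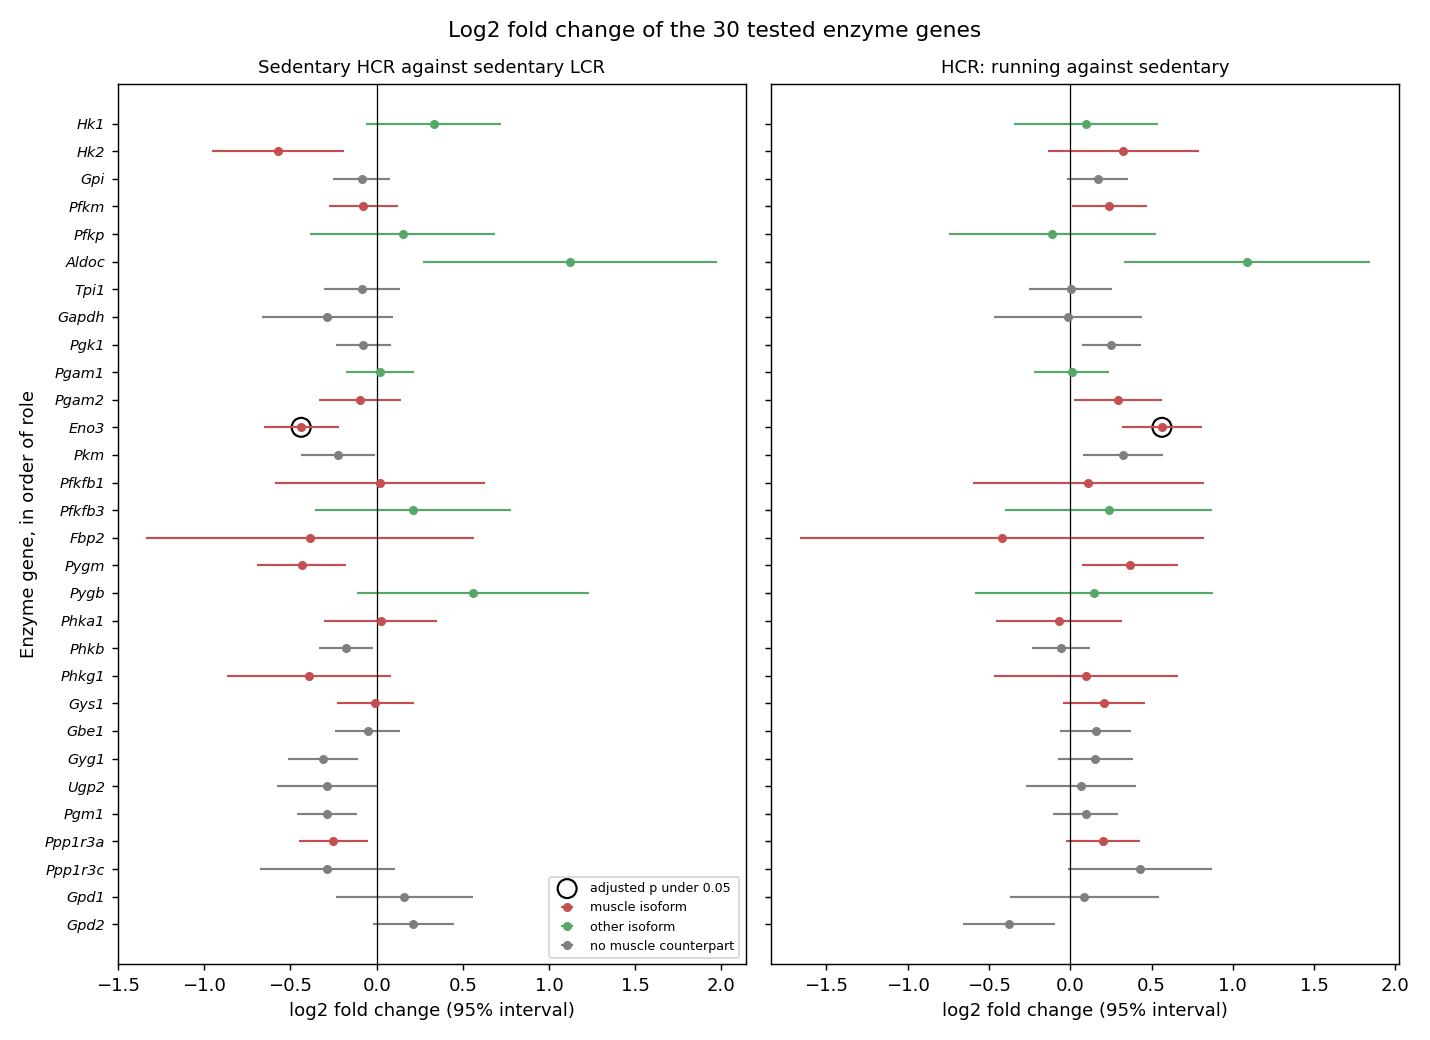
Log2 fold change with its 95% interval for the 30 tested enzyme genes, in order of role, for sedentary HCR against sedentary LCR (left) and HCR runners against sedentary HCR (right). Colours give the class, and rings mark adjusted p under 0.05, which Eno3 alone reached, at -0.44 on the left and 0.56 on the right.

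Most fast-fibre markers were lower in HCR. Fast-fibre genes summed to a median of 12321 CPM (9339 to 15152) in sedentary LCR and 7989 CPM (4273 to 11030) in sedentary HCR, and to 11124 CPM (8191 to 15521) and 5855 CPM (4104 to 7725) in the LCR and HCR runners. Averaged over activity, 4 of 10 fast-fibre genes passed, against 3.75% of all genes. All 4 were lower in HCR: Myh2, the fast 2A myosin (-1.97), and the fast troponins Tnni2 (-1.81), Tnnt3 (-1.45) and Tnnc2 (-0.79). The 1 fast-fibre gene above 0 stood at 0.42. Between the sedentary lines 0 of the 10 passed, and among runners 3 did, against 2.72% and 0.626% of all genes. No slow-fibre gene passed in these comparisons of the lines. The muscle-isoform enzymes summed to medians of 3427 and 2891 CPM in sedentary LCR and HCR, but to 3482 and 3589 CPM in the LCR and HCR runners. Slow-fibre genes summed to medians of 35642 and 31696 CPM in sedentary LCR and HCR and 35640 and 39515 CPM in their runners, the same order of sedentary HCR lowest and HCR runners highest as for the muscle isoforms. HCR runners thus had the lowest median of fast-fibre transcripts and the highest medians of slow-fibre and muscle-isoform enzyme transcripts. The part of fibre markers in the enzyme differences was not tested.

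**Figure D3:**
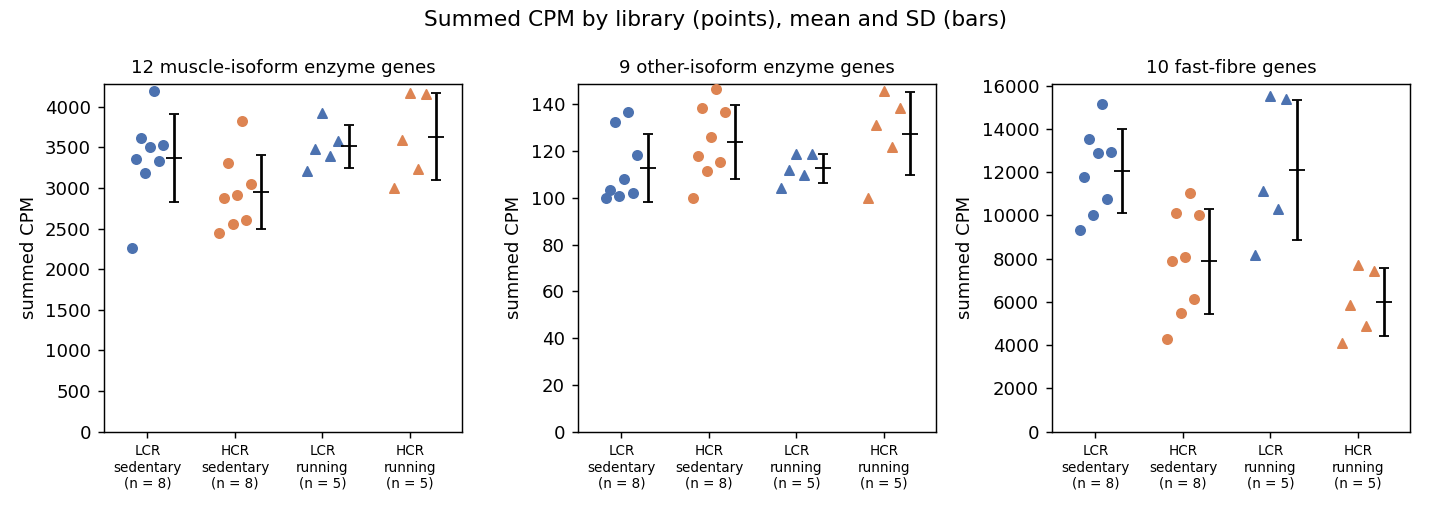
Summed CPM of 12 muscle-isoform enzyme genes, 9 other-isoform enzyme genes and 10 fast-fibre genes in each library (points), with mean and SD by group, on linear axes from 0. Fast-fibre sums of the HCR runners (4104 to 7725 CPM) lie below those of the LCR runners (8191 to 15521 CPM), whereas the muscle-isoform sums of these groups overlap.

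Among runners, the same line difference was examined. No member passed with edgeR, against 0.626% of all genes, and none had an unadjusted p under 0.05, against 863 of 10064 genes (8.58%). DESeq2, voom and every other alternative also called 0 members. Eno3 stood at 682, 696, 655, 579 and 674 CPM in the LCR runners in replicate order and at 604, 628, 769, 561 and 657 CPM in the HCR runners. Both groups covered much the same range. Their log2 difference was -0.03 (SE 0.13, 95% interval -0.30 to 0.24). The largest difference in size was that of Aldoc, at 0.80 (SE 0.40, adjusted p = 0.592, edgeR).

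Within HCR, runners were compared with sedentary rats. Eno3 averaged 644 ± 78.4 CPM in the 5 runners (SD) against the 436 CPM of their sedentary line mates. It rose 1.48-fold, or by 0.56 in log2 (SE 0.12; adjusted p = 0.0318 by edgeR). All 5 runners lay above the sedentary mean and 4 above the highest sedentary library, with HCR running 4 (561 CPM) within the sedentary range. It had rank 10 by p among all genes, and was the 1 member of 30 to pass in either direction, against 0.0994% (10 genes).
The call was lost in 8 of 26 refits that left out 1 library. Without HCR running 3 the adjusted p was 0.265. Without HCR running 2 or 5, or HCR sedentary 1, 2, 3, 6 or 7, it ran from 0.0621 to 0.0792. Without both libraries of conflicting title it was 0.0706 (log2 fold change 0.55).

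Other members in HCR runners had an unadjusted p under 0.05 but did not pass. Positive differences were those of Pkm (0.33, adjusted p = 0.231, edgeR), Pygm (0.37, 0.270), Pgk1 (0.25, 0.203), Pgam2 (0.29, 0.338), Pfkm (0.24, 0.366) and Aldoc (1.09, 0.195). Gpd2, the mitochondrial glycerol phosphate dehydrogenase, had a negative one (-0.38, 0.229). Pgam2 ranged from 755 through 999 to 1334 CPM in sedentary HCR and stood at 952, 1179.8, 1414, 1029 and 1519 CPM in the HCR runners. The HCR runners with the 2 highest Pgam2 values, replicates 3 and 5, exceeded every sedentary library of their line. Pygm stood at 231, 283, 355, 261 and 385 CPM in the same runners, again highest in replicates 3 and 5, and at 241, 291, 245, 310.2 and 346 CPM in the LCR runners. In all, 24 of 30 members had a value above 0 (median 0.15), against 49.1% of all genes (median -0.00), and 9 of 11 muscle isoforms did (median 0.21). Adipocyte markers, 7 in all, summed to medians of 256 CPM (181 to 413) in sedentary HCR and 233 CPM (171 to 259) in HCR runners. Of the tested marker genes, 4 of 5 for adipocytes (median log2 difference -0.77), 5 of 5 for fibroblasts (-0.36), 4 of 4 for Schwann cells (-0.50), 5 of 6 for macrophages (-0.11) and 7 of 10 for fast fibres (-0.41) were below 0 in HCR runners, whereas 7 of 7 for slow fibres were above 0 (0.24). Below 0 were also 5 of 7 for endothelial cells (-0.19), 2 of 4 for smooth muscle (-0.08) and 2 of 3 for red cells (-0.03). None of these marker genes passed, and their part in the enzyme differences was not tested.

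In LCR rats 0 members passed, against a background of 0% (0 of 10064 genes with edgeR; 612 genes and 4 members had an unadjusted p under 0.05, and DESeq2 called 2 genes, no member). In LCR those 4 members were Aldoc (1.41), Pfkm (0.30), Pfkfb3, an inducible maker of the phosphofructokinase activator fructose 2,6-bisphosphate (0.69), and Pfkp (-0.72). Eno3 differed by 0.16 (SE 0.12). Pgam2 ranged from 692 through 1081 to 1378 CPM in sedentary LCR and stood at 1084, 1089.9, 1031, 1039.9 and 1184 CPM in LCR runners, with a difference of 0.03 (95% interval -0.24 to 0.30). All LCR runners lay inside the sedentary range.

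Aldoc was low but differed most in size. Sedentary LCR libraries ranged from 0.694 through a median of 2.06 to 3.23 CPM (1 to 6 counts) and sedentary HCR libraries from 1.25 through 4.03 to 10.6 CPM (2 to 16 counts). The LCR runners stood at 7.60, 4.92, 5.21, 5.05 and 4.40 CPM (5 to 14 counts), and the HCR runners at 4.67, 12.5, 19.2, 4.14 and 7.15 CPM (5 to 27 counts). In LCR every runner exceeded every sedentary library in CPM, although their counts overlapped and the difference did not pass. In HCR the groups overlapped and 2 of 5 runners exceeded all sedentary libraries. Aldoc was the 1 of 30 members without overlap in LCR running against sedentary, where 0.268% of all genes had none. Aldoc passed the filter on low counts through the other groups, since sedentary LCR libraries reached at most 6 counts. No member was free of overlap between the sedentary lines (0.586% of genes), between the running lines (1.91%) or in HCR running against sedentary (0.596%).

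Averaged over the lines, Eno3 and Aldoc were higher in runners, 2 of 30 members in either direction, against 0.378% of all genes. Of these, Aldoc was among the tested members only through groups other than sedentary LCR. Eno3 rose by 0.36 (SE 0.08, adjusted p = 0.0425, edgeR) and Aldoc by 1.25 (SE 0.29, adjusted p = 0.0425), or 2.38-fold. The Eno3 call held in 5 of 26 refits without 1 library (without LCR sedentary 3 or 5, HCR sedentary 4 or 8, or HCR running 4), and elsewhere its adjusted p reached 0.125. The Aldoc call held in 6 (without HCR sedentary 1, 4 or 8, HCR running 1 or 4, or LCR running 5), and elsewhere its adjusted p reached 0.145. Both keep a direction above 0 in all 26 refits, from 0.32 to 0.39 for Eno3 and from 1.05 to 1.38 for Aldoc. Pfkm followed, with a value of 0.27 (SE 0.08, adjusted p = 0.122, edgeR). In the same contrast all 7 slow-fibre genes were above 0 (median 0.11), and 1 of them passed. Of 10 fast-fibre genes 8 were below 0 (median -0.32), and 0 passed. The part of these markers in the Eno3 and Aldoc differences was not tested.

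Pfkm ranged from 154 through 203 to 267 CPM in sedentary LCR and from 166 through 187 to 237 CPM in sedentary HCR. It stood at 285, 267, 214, 219.9 and 249 CPM in LCR runners and at 216, 220.2, 239.7, 203 and 247 CPM in HCR runners. Runners of both lines overlapped the sedentary range from above. Ppp1r3c (0.33), Pfkfb3 (0.46), Pgk1 (0.15) and Gpd2 (-0.19) also had an unadjusted p under 0.05 and adjusted values of 0.299 to 0.390 (edgeR). Gys1 ranged from 339.8 through 539.6 to 594 CPM in sedentary LCR and from 435 through 499 to 665 CPM in sedentary HCR. It stood at 531, 541, 457, 555 and 691 CPM in LCR runners and 427, 565, 692, 614 and 664 CPM in HCR runners. The 4 groups overlapped, and its average difference with running was 0.16 (95% interval -0.02 to 0.33).

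Averaged over activity, 0 members differed between the lines with edgeR, against 3.75% of all genes (377 genes). Aldoc had a value of 0.96 (SE 0.29, adjusted p = 0.0522), Gyg1 -0.25 (0.0675) and Phkb -0.18 (0.0877). In all, 9 members had an unadjusted p under 0.05, against 1585 of all genes. The further ones were Hk1 (0.34), Hk2 (-0.32), Ugp2, which makes the sugar donor for glycogen (-0.30), Eno3 (-0.23), Pgm1 (-0.19) and Phkg1. DESeq2 called Aldoc (0.99, adjusted p = 0.043) and Phkb (-0.19, 0.0343). Leaving out 1 library at a time brought some members past the threshold. Aldoc passed without LCR sedentary 6, HCR sedentary 5 or 6, LCR running 1, or HCR running 1 or 4 (1.01 to 1.07). Gyg1 passed without LCR sedentary 5, LCR running 3 or HCR running 5 (-0.30 to -0.27), Eno3 without LCR sedentary 5 (-0.27, adjusted p = 0.025) and Phkb without HCR running 5 (-0.23, 0.0138). Phkg1, the muscle catalytic subunit of phosphorylase kinase, had a value of -0.48 (adjusted p = 0.172, edgeR) and passed without HCR running 3 (-0.64, 0.04).

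The difference between the lines in their response to running was tested directly and no member passed with edgeR, against 0% of all genes. Members with an unadjusted p under 0.05 were 2, Pygm and Eno3, against 592 of all genes, and DESeq2 and the other alternatives called no gene. The response of Eno3 was 0.41 higher in HCR (SE 0.17, unadjusted p = 0.0209, adjusted p = 0.835, edgeR) and that of Pygm 0.51 higher (SE 0.20, unadjusted p = 0.0166, adjusted p = 0.835). Eno3 passing in HCR and not in LCR is therefore not shown to be a difference between the lines.

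The balance of muscle and other isoforms was compared as a ratio of counts within a library, which does not depend on library scaling. Of 7 listed pairs, 4 had both genes past the filter, giving 16 tests over 4 contrasts. Only Hk2 to Hk1 in the sedentary lines passed. The log2 ratio ranged from -0.17 through a median of 0.28 to 0.79 in sedentary LCR and from -1.33 through -0.47 to 0.06 in sedentary HCR. All sedentary LCR libraries but 1 had more Hk2 than Hk1 counts and all sedentary HCR libraries but 1 had fewer. The means differed by -0.86 (0.31 against -0.55, exact 2-sided permutation p = 0.000622, adjusted p = 0.00995, n = 8 each). Hk1 ranged from 10.5 through 11.2 to 15.5 CPM in sedentary LCR and from 9.36 through 14.8 to 21.2 CPM in sedentary HCR. It stood at 10.3, 12.6, 16.8, 11.4 and 11.4 CPM in LCR runners and 25.4, 14.1, 10.6, 19.9 and 7.15 CPM in HCR runners. Hk2 stood at 8.68, 15.1, 16.2, 8.85 and 18.5 CPM in LCR runners and at 8.82, 14.6, 12.8, 13.3 and 14.3 CPM in HCR runners. In runners the Hk2 to Hk1 ratios of the lines overlapped widely (difference -0.22, exact permutation p = 0.683, adjusted p = 0.78, n = 5 each).

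Hk1 is also known from many non-muscle cells. Macrophage markers (7 genes) summed to a median of 226 CPM (171 to 269) in sedentary LCR and 285 CPM (225 to 361) in sedentary HCR. Adipocyte markers (7 genes) summed to 190.5 CPM (137 to 317) and 256 CPM (181 to 413). Medians in sedentary LCR and HCR were 400 and 440 CPM for fibroblast markers and 147 and 166 CPM for Schwann cell markers. They were not higher in HCR for endothelial (304 and 301 CPM), smooth muscle (231 and 199 CPM) and red cell markers (223 and 194 CPM). Their part in the hexokinase ratio was not tested.

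**Figure D4:**
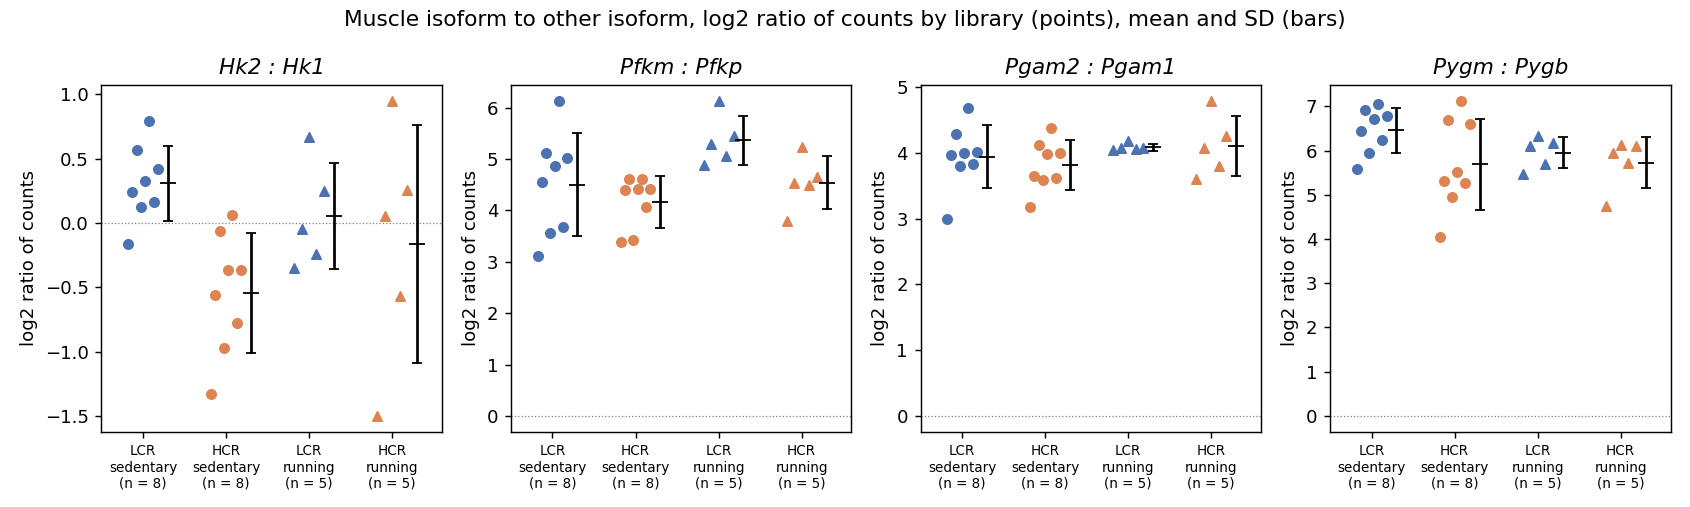
Log2 ratio of muscle-isoform to other-isoform counts within each library (points) for 4 enzyme pairs, with group mean and SD, 0 marking equal counts. The Hk2 to Hk1 ratio of sedentary HCR (mean -0.55) lies below that of sedentary LCR (mean 0.31), whereas the other pairs stay far above 0 in all groups.

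The other 15 tests of isoform ratios did not pass. The ratio of Pfkm to Pfkp was 0.82 lower in HCR than in LCR runners (4.54 against 5.36, exact permutation p = 0.0238, adjusted p = 0.19, n = 5 each). Pygm to Pygb stood at 6.45 ± 0.51 in sedentary LCR and 5.69 ± 1.03 in sedentary HCR (log2 ratio, SD, n = 8 each; exact permutation p = 0.0803, adjusted p = 0.303). Pgam2 to Pgam1 stood between 3.82 and 4.11 in the 4 groups. Eno3 to Eno1 was not tested because Eno1 was too low. Summed counts of Eno3 were 134 and 79.9 times those of Eno1 in sedentary LCR and HCR and 157 times in both running groups.

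Some of the enzymes varied with slow myosin within groups. Log2 CPM of each member was centred on its group mean and correlated with Myh7, the slow myosin, and Myh2 over 26 libraries, which share their scaling and depth. Of 60 correlations 11 passed (permutation test, 100000 shuffles within groups, Benjamini-Hochberg adjustment), all with Myh7. Positive ones included Gys1 (r = 0.73, rho = 0.67, adjusted p = 6e-04 for r, 0.018 for rho; the raw p for r, 1e-05, is the smallest the shuffles can give) and Pygm (r = 0.73, rho = 0.66, adjusted p = 0.0045 and 0.018). The others were Pgam2 (0.68), Ppp1r3c (0.66), Gbe1, the glycogen branching enzyme (0.63), Gyg1 (0.62), Eno3 (0.62), Pgk1 (0.57) and Pfkm (0.54). Hk1 (r = -0.65, rho = -0.62, adjusted p = 0.0082 and 0.0461) and Pfkp (r = -0.49, adjusted p = 0.0473) ran the other way. By Spearman's rho Gys1, Pygm, Pfkm, Pgam2 and Hk1 passed.

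LCR sedentary 5 carried much of this. Without it, 3 correlations passed, those of Gys1 (r = 0.67), Pygm (0.68) and Hk1 (-0.69). The other 8 kept their sign, with r from 0.45 to 0.60 for the positive ones and -0.39 for Pfkp. Without the 2 libraries farthest from the median of Myh7, r was 0.75 for Gys1, 0.66 for Pygm and -0.56 for Hk1. Within sedentary libraries alone (n = 16) these values were 0.76, 0.78 and -0.76, and within runners (n = 10) 0.79, 0.66 and -0.73. Eno3 had 0.68 in sedentary libraries and 0.28 in runners.

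By class, 10 of 11 muscle isoforms and 1 of 6 other isoforms correlated positively with Myh7 (medians 0.47 and -0.24). Over the 10063 other genes tested, 46.3% did, with a median of -0.03. An r above 0.5 with Myh7 was found for 9 of 30 members (30%) and for 7.14% of all genes tested. With Myh2, 0 members passed the test (highest r 0.48, Pygm), and 0.845% of all genes had an r above 0.5. The positive lean was found there too, with r above 0 for 9 of 11 muscle isoforms, 2 of 6 other isoforms and 73.3% of all members, the share also found with Myh7, against 49% of other genes. This lean with Myh2 rested in part on LCR sedentary 5. Without it, r fell below 0 for Pfkm (-0.00086), Fbp2 (-0.05), Ppp1r3a (-0.10) and Pfkfb1 (-0.18). It stayed above 0 for Pygm (0.38), Gys1 (0.30), Phka1 (0.28), Eno3 (0.26) and Pgam2 (0.19).

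**Figure D5:**
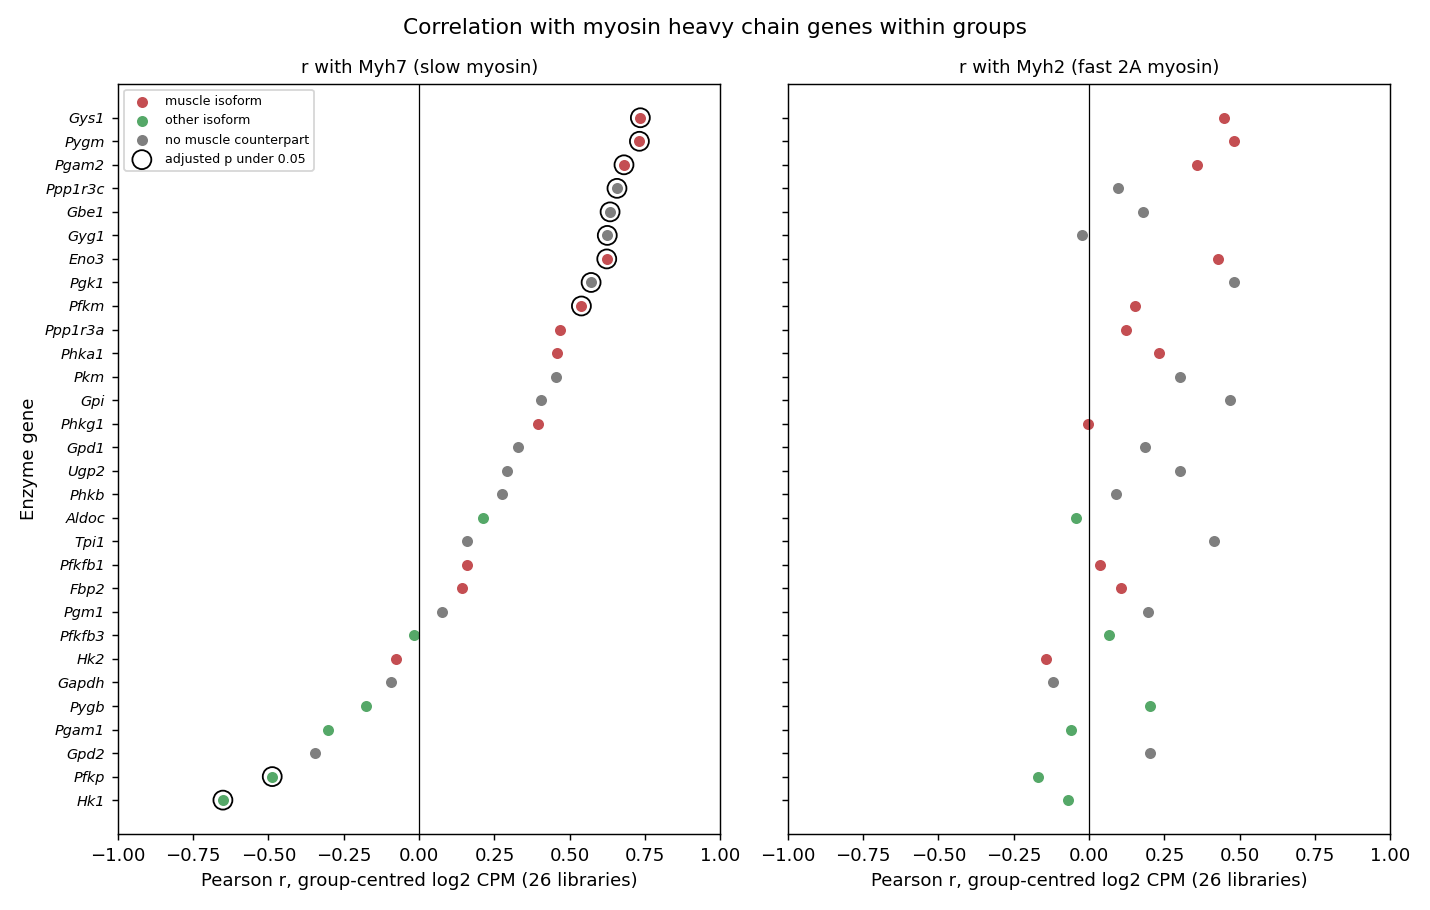
Pearson r of each tested enzyme gene with Myh7 (left) and Myh2 (right), from group-centred log2 CPM of 26 libraries, ordered by the value for Myh7. Rings mark adjusted p under 0.05, reached by 9 positive and 2 negative genes on the left and by none on the right.

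The low and variable members add little. Fbp2, the muscle fructose bisphosphatase, ranged from 0.624 through 9.16 to 16.7 CPM in sedentary LCR and from 0.625 through 6.42 to 9.24 CPM in sedentary HCR. It stood at 5.43, 4.38, 3.48, 3.79 and 14.9 CPM in LCR runners and at 3.11, 8.14, 6.38, 0 and 5.11 CPM in HCR runners. These groups overlapped, and its 95% intervals for the sedentary lines (-1.34 to 0.56) and HCR running (-1.66 to 0.83) allow changes of over 2-fold. Gpd1, the cytosolic glycerol phosphate dehydrogenase, ranged from 12.4 through 24.7 to 39.6 CPM in sedentary LCR and from 18.7 through 27.5 to 37.0 CPM in sedentary HCR. It stood at 28.2, 25.3, 34.2, 31.6 and 18.5 CPM in LCR runners and 28.0, 32.0, 32.6, 14.9 and 43.9 CPM in HCR runners. The log2 differences of Gpd1 reached at most 0.16 in size over the 7 contrasts.

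Of 43 other genes of the pathway (other isoforms, glycogen handling, glucose transport and regulators), 42 were in the table and 28 were tested. In the 7 contrasts 2 passed. Slc2a4, the insulin-responsive glucose transporter, rose with running averaged over the lines by 0.29 (SE 0.07, adjusted p = 0.0491, edgeR), with group means of 774 ± 88.4 and 699 ± 81.2 CPM in sedentary LCR and HCR (SD, n = 8 each) and 881 ± 123 and 912 ± 57.3 CPM in their runners (n = 5 each). Pfkfb2, the heart form of the phosphofructokinase activator enzyme, was lower in HCR averaged over activity, with a log2 difference of -0.48 (SE 0.12, adjusted p = 0.0192, edgeR). Its means were 31.8 ± 3.55 and 25.4 ± 2.66 CPM in sedentary LCR and HCR (SD, n = 8 each) and 35.4 ± 10.7 and 22.5 ± 9.94 CPM in their runners (n = 5 each). None of the 28 passed in the 4 comparisons of single groups.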

How the data were processed

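The authors deposited raw gene counts as whole numbers, with no normalisation visible in the values. Per the labels' protocols, the kit primes on poly(A) RNA and gives single-end reads of the 3' ends of transcripts. Tools named in the submitters' processing notes are STAR, featureCounts, cutadapt, UMI-tools, FastQC and MultiQC, with the assembly mRatBN7.2. Versions, the collapsing of molecular identifiers and the strand setting are not given in the sources used here, so overlapping genes and near-identical copies are uncertain. Groups came from the description, and 0 columns belonged to no sample. Library pairs of a group differed beyond sampling noise (chi-square).

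Counts of all 26 libraries were fitted in edgeR 4.0.16 (R 4.3.3) with TMM factors, filterByExpr, robust quasi-likelihood F tests and Benjamini-Hochberg adjustment over 10064 genes at 0.05. There were 7 contrasts: the line difference in sedentary rats, in runners and averaged, the running difference in each line and averaged, and the difference of responses. The comparisons share groups and are not independent of each other. The tests were checked on simulated counts. Ratios of isoform counts (0.5 added) used exact permutation tests, and correlations used log2 CPM with a prior count of 2. The upper limit for a count of 0 covers counting error only.

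The members, classes and other lists were chosen with earlier results of these data known. Full values are given for members called in any contrast, for pairs with a ratio past the threshold and for Hk2, Pfkm, Pygm, Gys1, Pgam2, Aldoa, Gapdh, Fbp2 and Gpd1; other members are given by counts, and by their fold change where the unadjusted p was under 0.05. Alternatives were DESeq2 1.42.0, voom with quality weights (limma 3.58.1), other scalings and filters, fewer groups, a replicate block, the title's line, and leaving out libraries.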

Additional observations from a re-analysis of the deposited data

Results flagged for a closer look

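Within-group extremes were looked for in the 30 tested members in each of the 4 groups by Dixon's ratio of the gap to the range. Of 120 combinations 11 were past the critical value, and chance flags about 1 in 20. In sedentary LCR, Gys1 stood at 339.8 CPM in replicate 5 against 485 to 594 CPM in the other 7, Hk1 at 15.5 CPM in replicate 6 against 10.5 to 12.4 CPM, and Pygb at 6.46 CPM in replicate 6 against 2.02 to 3.66 CPM. In sedentary HCR, Pygm stood at 352 CPM in replicate 4 against 189 to 236 CPM, and Gyg1 at 153 CPM in replicate 3 against 200.04 to 239 CPM. Pfkfb1, a form of the fructose 2,6-bisphosphate enzyme, stood at 3.75 CPM in HCR sedentary 5 against 14.4 to 21.1 CPM, and Pygb at 13.9 CPM in HCR sedentary 8 against 1.87 to 5.91 CPM. Gpd2 stood at 61.7 CPM in HCR sedentary 7 against 32.4 to 46.2 CPM. Among runners, Aldoc stood at 7.60 CPM in LCR running 1 against 4.40 to 5.21 CPM, and Fbp2 at 14.9 CPM in LCR running 5 against 3.48 to 5.43 CPM. Pgk1 stood at 425 CPM in HCR running 5 against 353 to 372 CPM. The last 2 are the libraries whose titles name the other line.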

How the results depend on the processing

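The number of members called between the sedentary lines was 1, but 3 with DESeq2, 4 with voom, and 2 with mitochondrial transcripts left out of library sizes, without the filter, with only the compared groups, with the replicate block, and without the libraries of conflicting title; it ran from 1 to 5 when 1 library was left out. For HCR running it was 1, but 0 with the replicate block (Eno3 adjusted p = 0.0829) and without the conflicting libraries, and 0 to 1 without 1 library. For running averaged it was 2, but 1 with upper-quartile factors and without the conflicting libraries, 0 with the replicate block, and 0 to 2 without 1 library. For the averaged line difference it was 0, but 2 with DESeq2 and without the filter, 1 with upper-quartile factors, the title's line and without the conflicting libraries, and 0 to 2 without 1 library. Members correlated with Myh7 fell from 11 to 3 without LCR sedentary 5, a setting chosen after seeing the data. The cause of these changes was not tested. Isoform pairs past the threshold went from 1 to 0 with the replicate block, whose 8 pairs cannot give an adjusted p under 0.05 for a single pair among 16 tests. The labels give replicate numbers only as part of sample names. Same-numbered libraries correlated from -0.22 to 0.26 over genes, but libraries of different numbers were not compared. It therefore cannot be told whether the numbers pair animals, or what calls lost under the block mean.

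Of 1632 fold changes and ratios under alternatives, 1534 kept direction and side of the threshold, 56 lost and 41 gained a call, and 1 reversed, Eno3 between the running lines without HCR running 4 (0.014 against -0.03, with a range of -0.10 to 0.014 without 1 library). Over all genes, calls ran from 182 to 337 without 1 library for the sedentary lines (274 with all) and from 32 to 67 for the running lines (63), where only the compared groups gave 35, no conflicting libraries 35 and the title's line 0. They ran from 0 to 2 for LCR running (0), from 4 to 38 for HCR running (10; DESeq2 79) and from 9 to 63 for running averaged (38; DESeq2 80, voom 58, replicate block 19). The title's line took the averaged line calls from 377 to 137. Depth limits genes of a few CPM, such as Aldoc with 1 to 27 counts a library.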
